A study of Homo sapiens with 42 samples.

Results

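Amino acids cross the membrane of a cell, and that of its lysosomes, through carrier proteins of the solute carrier (SLC) families. The transcripts of 33 such carriers of the SLC1, SLC3, SLC6, SLC7, SLC16, SLC36, SLC38 and SLC43 families were followed here in 7 cell lines of human acute lymphoblastic leukaemia (ALL). The members were taken by gene symbol from a list drawn up with earlier results of these data known. All 33 were found among the 50648 genes of the joined count tables. Nalm6, SUPB15, RS411, REH and 697 are B-cell precursor lines, and CEM and DND41 are T-cell lines. Each line, grown in RPMI-1640 with serum and added glutamine, was left untreated or given L-asparaginase at 1 IU/ml for 4 h, with 3 libraries per group and 42 libraries in all. The labels describe the replicates as independent experiments on each line, so the spread between them is that of repeated cultures of a single line and not of patients.

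L-asparaginase is an enzyme drug of leukaemia therapy that hydrolyses asparagine and, more slowly, glutamine in the medium. Cells short of an amino acid activate the kinase GCN2 through uncharged tRNA, which favours translation of the transcription factor ATF4. ATF4 pairs with C/EBP proteins on composite elements near genes of amino acid synthesis and uptake. Among the carriers, SLC1A5 and the SLC38 family bring in glutamine and other neutral amino acids. SLC3A2, the heavy chain 4F2hc, brings light chains of the SLC7 family to the plasma membrane, where they exchange 1 amino acid for another. SLC7A1, SLC7A2 and SLC7A3 carry arginine and lysine, SLC6A9 carries glycine and SLC6A6 taurine. SLC36A1, SLC38A7 and SLC38A9 act at the lysosome, where SLC38A9 also reports arginine to the growth kinase mTORC1.

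The promoters of 6 members held a C/EBP-ATF type element, and these are printed to show the sequence type through which ATF4 is known to act. Of the 6 genes 5 rose in the mean response, where 14 of 28 tested members and 17.8% of all genes did, and since the motif was chosen after results of these data were known, this count supports nothing. The letters searched were TGATGNAA on both strands, in RefSeq promoters of GRCh38.p14 that run from 250 bases before to 50 bases after each start site. In all, 26 of the 33 members matched a promoter entry, and 6 of them, or 23.1%, held the letters. Over all 27305 genes with an entry the share was 4.46%, and over all 35116 promoters of that length it was 3.62%. Each line below reads 5′ to 3′ on the strand of the gene, with the motif in capitals. In SLC1A4 and SLC3A2 it lies on the opposite strand and is shown as its reverse complement.
SLC1A4: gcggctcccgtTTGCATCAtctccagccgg
SLC1A5: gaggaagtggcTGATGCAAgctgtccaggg
SLC1A3: caggaaatgacTGATGCAAagcagggttaa
SLC3A2: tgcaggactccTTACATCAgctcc
SLC7A1: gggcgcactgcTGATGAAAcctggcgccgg
SLC38A1: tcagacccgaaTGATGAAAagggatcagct

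The stretches lie at chr2:64989381-64989410 for SLC1A4, chr19:46784893-46784922 for SLC1A5 and chr5:36596357-36596386 for SLC1A3. Those of SLC3A2, SLC7A1 and SLC38A1 lie at chr11:62881725-62881748, chr13:29595663-29595692 and chr12:46266502-46266531. The motif began 7 bases before the start site in SLC1A4, 97 before it in SLC1A5, 220 before it in SLC1A3 and 4 before it in SLC38A1. It began at position 38 after the start in SLC3A2 and at position 8 in SLC7A1. A match of letters describes the sequence and shows no binding, and SLC6A9, SLC7A5 and SLC38A2, which also rose, had no match in this window.

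Depth per library ran from 15.07 to 77.14 M (mega counts; median 40.28 M), and in CEM every treated library (50.81 to 71.52 M) was deeper than every untreated one (22.68 to 31.6 M), whose part in the CEM results was not tested. Summed marker genes matched the lineages for the T-lineage list and less cleanly for the B-lineage list. T-lineage markers summed to 1150 CPM (counts-per-million) or more in CEM and DND41 and to at most 2.34 CPM elsewhere. B-lineage markers summed to 1000 to 2030 CPM in the B-precursor lines and to 36.8 to 1060 CPM in the T lines. Untreated DND41 carried CD79A at 868 CPM, EBF1 at 24.9 and CD79B at 7.69, with PAX5 and CD22 at 0. Untreated CEM carried VPREB1 at 23.7 CPM and CD79A at 22. Single markers were also low within their own lineage, with CD5 at 0.773 and CD2 at 2.9 CPM in untreated DND41 and VPREB1 at 0 in untreated REH. Of the other lists, the erythroid and myeloid markers stayed at or below 0.546 and 23.1 CPM, and the stromal ones reached 150 CPM through PDGFRB and THY1 with the collagens at or below 1.73 CPM in group means. Some of these sums moved with treatment. The myeloid sum, carried by CSF1R, was higher without overlap in SUPB15 (3.99 to 8.13 CPM untreated, 9.75 to 16.9 treated), RS411 (6.95 to 14.2 and 21.8 to 23.1), REH (4.9 to 5.63 and 13.1 to 15.8) and 697 (1.45 to 3.11 and 4.28 to 4.89), with S100A8 at 0 in every group mean. The stromal sum was higher without overlap in Nalm6, SUPB15, REH, 697 and DND41 and lower in CEM, with mean PDGFRB going from 6.09 to 23.6 CPM in SUPB15 and from 54.7 to 119 in 697. T-lineage markers in DND41 were lower (1720 to 2000 and 1350 to 1530 CPM), as were the B-lineage markers in CEM (55.6 to 65 and 36.8 to 49.7 CPM). Their part in the carrier results was not tested. In Nalm6, SUPB15, RS411, DND41 and 697, untreated library A (library 1 in 697) had the lowest share of its group in 5 small noncoding RNAs, at 3.35% to 7.23% of counts. The other untreated libraries held 7.83% to 13.5%, and treated ones 5.77% to 17.8%. In RS411 the split was unclear, as 1 library at 13.5% lay far above the group mean of 9.51% and A was at 7.23%. These 5 libraries are named below as those that stood apart. The treated libraries SUPB15 C, REH A and RS411 B held transcripts that the rest of their lines lacked (unshared transcripts), the source of which was not tested. Among the members such traces were SLC1A1, a glutamate carrier, at 0.279 CPM and SLC7A8 at 0.195 CPM in SUPB15 C, and SLC7A8 at 0.132 CPM in REH A. No member is given as a trace for RS411 B. SLC1A2, at 0.809 CPM in SUPB15 C, was also read at lower levels in the other treated libraries of that line.

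Of the 33 members, 19 had enough counts to be tested in all 7 lines, 9 in some lines and 5 in none. The 5 were the glutamate carrier SLC1A1, the heavy chain rBAT (SLC3A1) with its light chain SLC7A9, the light chain SLC7A10, and the neutral amino acid carrier SLC38A4. SLC7A10 had 0 counts in all 42 libraries, which allows up to 0.0389 CPM in the deepest and 0.199 CPM in the shallowest of them, for counting error only. The highest level in any library was 0.279 CPM for SLC1A1, 0.303 for SLC3A1, 0.262 for SLC7A9 and 0.0341 for SLC38A4. A level per length was set as CPM per kb of exon, with exon lengths of GENCODE 29 (GRCh38) because no hg19 annotation was used here, so that comparisons between genes are approximate.

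Before treatment, a handful of carriers made up most of the signal per length. SLC7A5 (LAT1), the light chain for leucine and other large neutral amino acids, was the highest member in 5 lines, from 50.1 CPM per kb in 697 to 194 in SUPB15. In RS411 SLC1A5 (ASCT2), an exchanger of glutamine, was higher at 58.1 against 53.1 CPM per kb, and in CEM SLC38A2 (SNAT2) was higher at 67.5 against 46.1. SLC1A5 lay between 30 and 66.1 CPM per kb, SLC38A2 between 32.7 and 69, and SLC3A2 between 25 and 65.2 over the lines. SLC38A1 (SNAT1), a further glutamine carrier, had 18.4 to 58.3 CPM per kb in 6 lines and 2.59 in DND41. The lysosomal members were lower, with SLC38A9 at 1.39 to 4.17 CPM per kb, SLC38A7 at 0.411 to 1.11 and SLC36A1 at 0.0112 to 1.08.

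**Figure D1:**
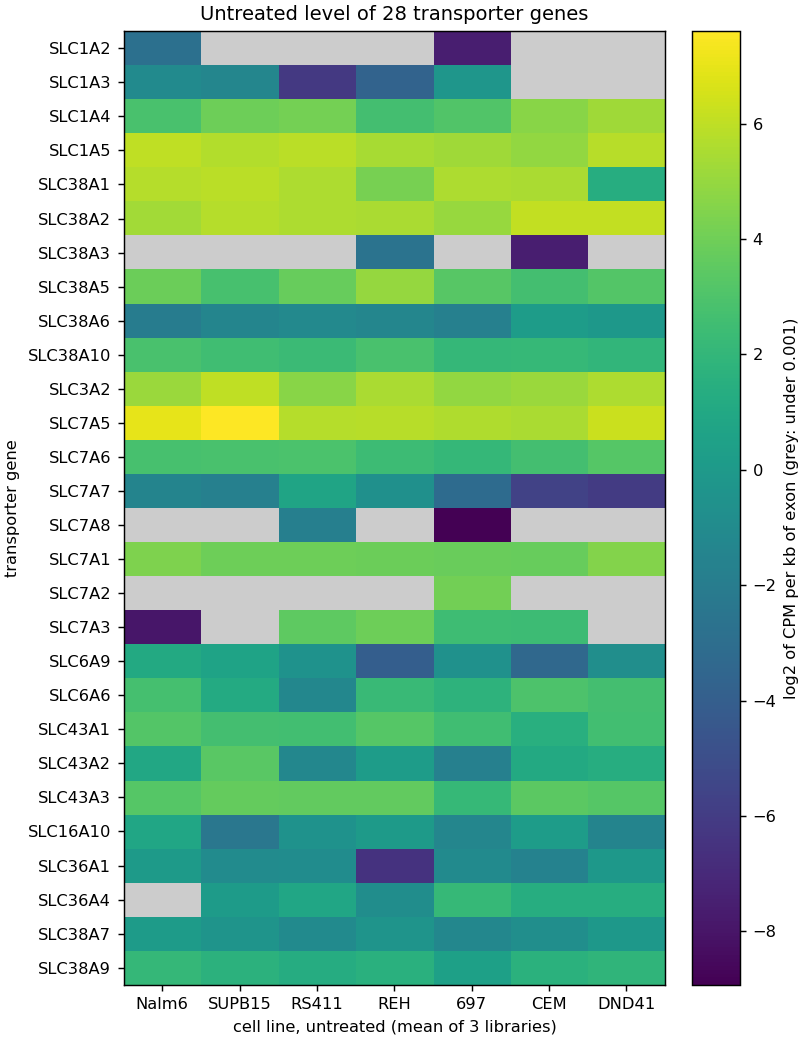
Untreated level of the 28 members tested in at least 1 line, as the log2 of the mean CPM per kb of exon over 3 libraries, by cell line (columns) and gene (rows), with grey for levels under 0.001. SLC7A5, SLC1A5, SLC38A2 and SLC3A2 are high in every column. SLC7A2, SLC7A3, SLC7A7, SLC36A1 and SLC36A4 are among those that change colour widely between lines, as with SLC7A2 at 16.7 CPM per kb in 697 and grey elsewhere.

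The untreated level differed between lines for all 28 members tested together (edgeR quasi-likelihood F test, Benjamini-Hochberg adjusted p from 9.3e-25 for SLC36A4 to 0.034 for SLC1A5). Among all genes tested 86.7% did so, and so the count says little about carriers. Line and culture or library batch cannot be told apart in this comparison. Several members were present in some lines and at or near 0 in others, and there the groups were far apart.

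SLC7A2 (CAT2), a carrier of arginine and lysine, was read in 697 at 103, 137 and 157 CPM untreated. All other untreated libraries had 0 counts. SLC7A3 (CAT3), of the same family, had untreated means of 25.7 CPM in RS411, 35 in REH, 12.4 in 697 and 11.9 in CEM, and lay at or under 0.0279 CPM in every library of Nalm6, SUPB15 and DND41. SLC7A1 (CAT1), the general carrier of the family, was instead found everywhere, from 103 CPM in CEM to 180 in DND41. Beside SLC7A1, then, 697 held both relatives, RS411, REH and CEM held SLC7A3, and Nalm6, SUPB15 and DND41 held neither above 0.0279 CPM.

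SLC36A4, a carrier of proline and tryptophan, had 0 counts in all 6 Nalm6 libraries. The untreated libraries of 697 held it at 52.3, 38.5 and 37.4 CPM, and means in the other 5 lines ran from 5.53 to 25.5 CPM. SLC38A1 stood at 38.9, 20.6 and 18.2 CPM in untreated DND41, below every library of every other line, the lowest of which was REH C at 154 CPM. SLC6A6, the taurine carrier, was lowest in RS411 (3.46 ± 0.263 CPM, SD, n = 3) and highest in CEM (64.5 ± 5.73). SLC43A2 (LAT4), a facilitator of leucine and phenylalanine, had its highest mean in SUPB15 at 109 ± 50.3 CPM, with A at 53.5, B at 152 and C at 121, and its lowest in 697 at 3.23 CPM. SUPB15 stood above the 38.2 CPM of the highest untreated library elsewhere (DND41 B).

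Rarer carriers were also confined to few lines at these depths. SLC1A3, a glutamate and aspartate carrier, had untreated means of 5.38 CPM in 697, 3.11 in Nalm6, 2.52 in SUPB15 and 0.486 in REH, and at most 0.114 CPM in any library of RS411, CEM or DND41. SLC1A2, another glutamate carrier, reached 2.32, 3.26 and 4.18 CPM in untreated Nalm6 and at most 0.13 CPM in untreated libraries elsewhere. SLC7A8 (LAT2), a light chain for small and large neutral amino acids, was found in RS411 at 2.32, 1.65 and 1.24 CPM untreated and 1.19, 0.891 and 1.04 CPM treated, and the glutamine carrier SLC38A3 in REH at 0.614, 0.609 and 0.745 CPM untreated. SLC7A7 (y+LAT1), a light chain that exchanges cationic for neutral amino acids, was highest in RS411 at 8.52 ± 0.63 CPM and lowest in DND41 at 0.0761 CPM.

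After L-asparaginase, members were called higher far more often than lower. They were chosen with earlier results of these data known, so their counts are descriptions. In the model of all 42 libraries, which takes the mean of the 7 lines' responses, 14 of 28 members rose and 4 fell at an adjusted p under 0.05 (edgeR quasi-likelihood test). Over all 20983 genes tested 17.8% rose and 19.6% fell. For 7 of the 28, namely SLC1A2, SLC1A3, SLC7A2, SLC7A3, SLC7A8, SLC36A4 and SLC38A3, lines with 0 counts in a group left the mean without a usable error and no value is given. The other 21 had a median log2 fold change of 0.47, against -0.02 over all genes, and 3 of them (SLC38A6, SLC43A2 and SLC43A3) did not pass. At 1.5-fold or more, 11 members changed, 10 of them upward, against 12.1% of all genes in either direction. CPM are shares of a library, and in bulk RNA a change in every cell cannot be told apart from a larger change in a part of the cells.

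Within single lines the same lean appeared. In CEM 13 of 23 tested members rose and 4 fell, against 19% and 17.7% of all genes. In REH 12 of 24 rose and 2 fell (13.2% and 13.3% of all genes), and in RS411 11 of 24 rose and 2 fell (7.58% and 5.19%). SUPB15 had 8 higher and 1 lower of 23, against 12.9% and 13.2%, and DND41 8 higher and 1 lower of 21, against 15.1% and 11.8%. Fewest were called in Nalm6, with 4 higher and 2 lower of 23 against 8.96% and 11.8%, and in 697, with 4 higher and 0 lower of 25 against 1.55% and 0.849%. The share that rose was thus above the background in every line, for a list chosen with earlier results known. Members that fell numbered at most 4 per line, too few to set their share apart from the background, which it nearly equalled in CEM. The median log2 fold change of the tested members was 0.24 in Nalm6, 0.36 in SUPB15, 0.42 in RS411, 0.57 in REH, 0.68 in 697, 0.52 in CEM and 0.28 in DND41, against -0.03 to 0 for all genes.

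Single libraries moved some of these counts. In 697, leaving out untreated library 1, which stood apart, gave 17 called members (14 higher, 3 lower) in place of 4, and leaving out any other library of that line gave 0. In RS411 the 13 called members became 3 without treated library B or C, 5 without treated A, and 7 without untreated B or C. In SUPB15 the 9 became 14 without untreated A and 5 without treated B, and in DND41 the 9 became 3 without treated B or C, 5 without untreated B and 4 without untreated C. The share of all genes called without the same libraries is not given here. Whether carriers moved more than other genes thus cannot be told from these counts.

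**Figure D2:**
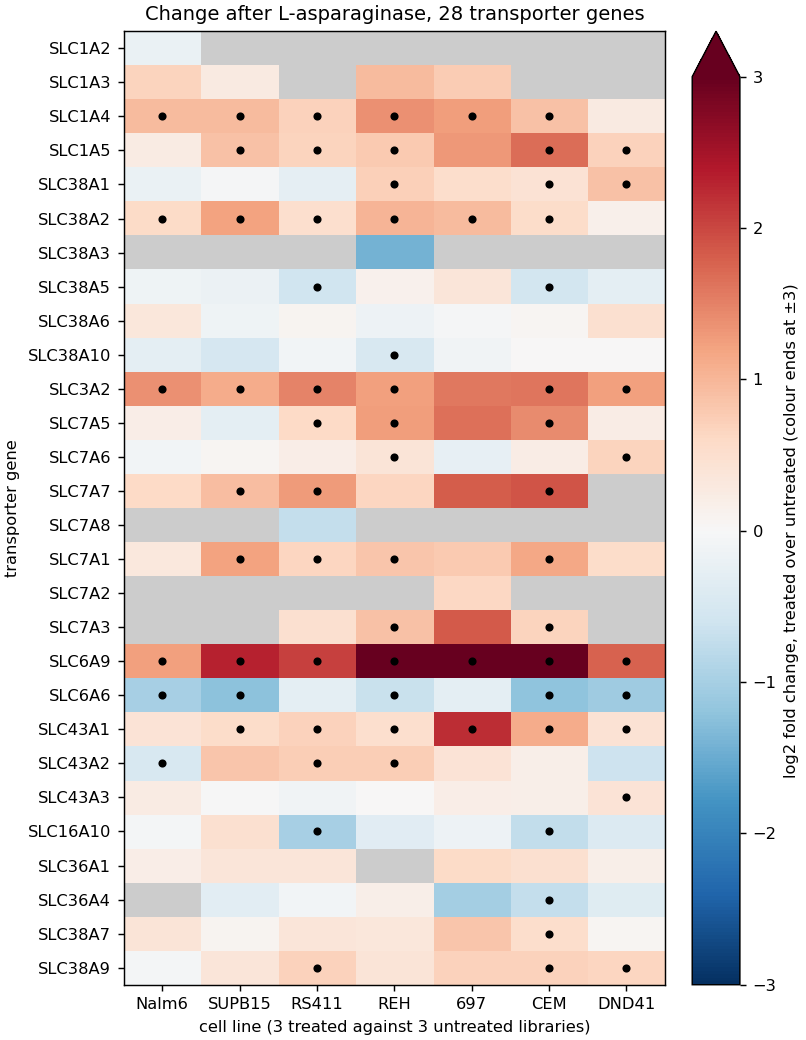
Log2 fold change of treated over untreated libraries from the model of each line, for 28 members (rows) in 7 lines (columns), with red for higher, blue for lower, grey for not tested and a dot for adjusted p under 0.05. The row of SLC6A9 is red with a dot in all 7 columns, SLC6A6 is blue in all 7 with dots in 5, and the column of 697 has dots in 4 rows only.

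The largest rise belonged to SLC6A9 (GlyT1), the glycine carrier. In CEM it stood at 0.433, 0.367 and 0.708 CPM untreated and at 9.15, 9.73 and 12.8 CPM treated. Every treated library lay above every untreated one there, as it did in each of the other 6 lines. The log2 fold change in CEM was 4.40 ± 0.24 (SE, adjusted p = 4.7e-07), and in the mean of the lines 2.68 ± 0.14, or 6.4-fold (adjusted p = 1.3e-16). SLC6A9 was the single member called in all 7 lines, from 1.23 ± 0.22 in Nalm6 and 1.77 ± 0.48 in DND41 to 3.51 ± 0.38 in REH and 3.54 ± 0.36 in 697. Its exons share 7.83% of their length with CCDC24 on the opposite strand, and whether counting used the strand is not given in the sources used here.

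The response of SLC6A9 differed between lines (interaction adjusted p = 0.0002). It was weaker in Nalm6 than in the mean of the other lines by 1.73 ± 0.37 on the log2 scale (adjusted p = 0.0062) and stronger in CEM by 1.99 ± 0.46 (adjusted p = 0.018). Nalm6 was the line with the highest untreated level, at 8.57, 15.8 and 9.61 CPM against 30.4, 21 and 26.6 CPM treated. CEM and REH, with 0.503 and 0.32 CPM untreated, were the lowest. In treated libraries the level still ranged from 2.18 CPM in REH A to 45 CPM in 697 library 3, so that the line with the largest fold was not the line with the highest level. Without single libraries the call ended in DND41 (log2 1.39 to 1.67, adjusted p from 0.054 to 0.089) and in 697 (3.46 to 3.75, adjusted p from 0.05 to 0.1).

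**Figure D3:**
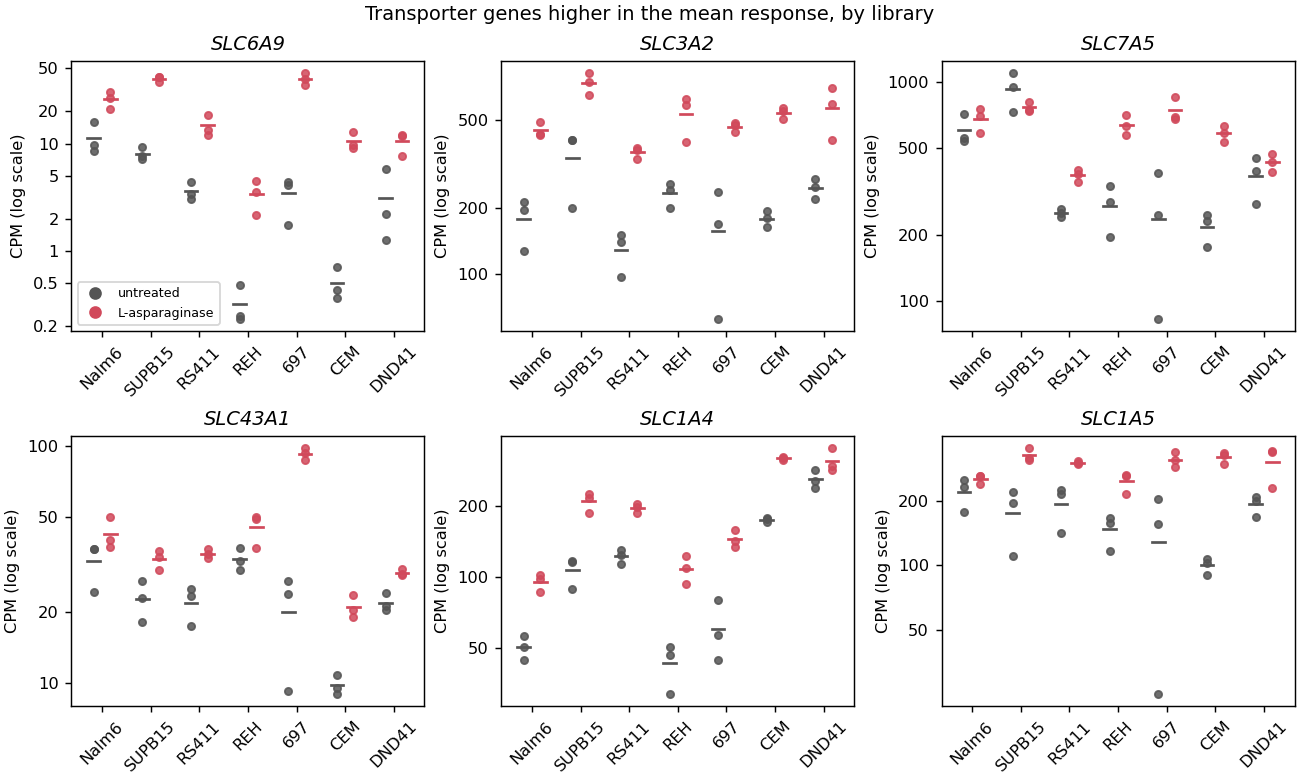
CPM of 6 members in each library on log axes, untreated (grey) and treated (red), with a bar for the mean of 3 libraries, by line. The red points of SLC6A9 and SLC3A2 lie above the grey ones in all 7 lines, whereas those of SLC7A5 mix with the grey ones in Nalm6, SUPB15 and DND41.

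SLC3A2, the shared heavy chain, was higher after treatment in every line. In CEM its libraries held 164, 193 and 180 CPM untreated and 504, 549 and 568 CPM treated, a log2 fold change of 1.61 ± 0.094 (adjusted p = 7.5e-07). The treated libraries lay above the untreated ones in all 7 lines. The mean response was 1.36 ± 0.11, or 2.56-fold (adjusted p = 8.9e-13), and the values of single lines ran from 1.11 ± 0.25 in SUPB15 to 1.61 in CEM with no detectable difference between lines (interaction adjusted p = 0.91). The rise was called in 6 lines. In 697 the log2 fold change of 1.58 ± 0.42 did not pass (adjusted p = 0.1), with untreated libraries at 62.9, 237 and 170 CPM. Without library 1, the lowest of these, it was 1.22 and passed (adjusted p = 0.00015). In SUPB15 the call ended without treated B (1.03, adjusted p = 0.052).

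Its main light chain, SLC7A5, did not follow it everywhere. In CEM SLC7A5 went from 247, 232 and 177 CPM to 630, 583 and 533 CPM (log2 1.42 ± 0.13, adjusted p = 1.5e-05), with no overlap between groups. It also rose in REH (1.26 ± 0.18, adjusted p = 0.00086) and RS411 (0.59 ± 0.11, adjusted p = 0.015). In SUPB15, where it was highest, the libraries held 725, 1090 and 949 CPM untreated and 746, 808 and 737 CPM treated, which overlap. The change there was -0.29 ± 0.16 (adjusted p = 0.23), and without untreated A it was -0.39 and passed (adjusted p = 0.019). Nalm6 (0.2 ± 0.16) and DND41 (0.22 ± 0.19) did not pass either.

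The difference between lines in SLC7A5 passed its own test (interaction adjusted p = 0.00094). SUPB15 lay 1.14 ± 0.29 below the mean response of the other lines (adjusted p = 0.021) and 697 lay 1.09 ± 0.29 above it (adjusted p = 0.014). In 697 the untreated libraries were at 83.3, 383 and 246 CPM, and the treated at 692, 679 and 852. The change of 1.65 ± 0.48 did not pass within that line (adjusted p = 0.12) but did without untreated library 1 (1.25, adjusted p = 0.00051). In RS411 the call ended without treated B (0.58, adjusted p = 0.091), and without any of 4 further libraries. Over the 7 lines the mean response was 0.71 ± 0.1 (adjusted p = 5.4e-07). The partial copy SLC7A5P1 was counted at 2.49 to 8.88 CPM in group means, and reads of such copies can be shared with SLC7A5.

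The other light chains were lower and moved less uniformly. SLC7A6 (y+LAT2), which exchanges arginine for glutamine, rose in DND41 (0.66 ± 0.16, adjusted p = 0.016) and REH (0.38 ± 0.1, adjusted p = 0.019) and in CEM passed with the replicate as a block (0.23, adjusted p = 0.027) or without untreated A (0.33, adjusted p = 0.011). In 697 it was lower without untreated library 1 (-0.42, adjusted p = 0.034). Its mean response of 0.16 ± 0.061 passed narrowly (adjusted p = 0.037), and leaving out 14 of the 42 libraries, 1 at a time, raised the adjusted p to between 0.052 and 0.07. It was 0.12 (adjusted p = 0.081) once the 5 untreated libraries standing apart were all left out. Its exons share 44.4% of their length with SLC7A6OS on the opposite strand, so that its counts are uncertain. The calls in REH and DND41 ended without any of 3 libraries each (adjusted p from 0.058 to 0.11). SLC7A7 rose in RS411, from 7.9, 9.16 and 8.51 CPM to 22.2, 18.1 and 21.4 CPM (1.28 ± 0.14, adjusted p = 0.0023), and in SUPB15 and CEM, where the call ended without untreated B (adjusted p = 0.057 and 0.068). The call in SUPB15 also ended without treated B. In REH SLC7A7 passed with the block (0.67, adjusted p = 0.007) and in 697 without untreated library 1 (1.43, adjusted p = 0.0066). Its mean rise was 0.97 ± 0.16 (adjusted p = 5.9e-06). SLC7A8, tested in RS411 only, changed by -0.72 ± 0.31 (adjusted p = 0.17).

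Set against the heavy chain per length, the light chains were lower after treatment in 4 lines. The sum of SLC7A5, SLC7A6, SLC7A7, SLC7A8, SLC7A10 and the cystine carrier SLC7A11, the last a light chain outside the 33 members, was divided by SLC3A2 in each library. In Nalm6 the ratio was 4.11 ± 0.927 (SD, n = 3) untreated and 1.82 ± 0.228 treated, in SUPB15 3.41 ± 0.819 and 1.4 ± 0.131, in RS411 2.71 ± 0.794 and 1.5 ± 0.195, and in DND41 2.11 ± 0.686 and 1.28 ± 0.147. In these 4 lines the highest treated library lay under the lowest untreated one, and untreated A, 1 of the libraries that stood apart, had the highest ratio of its group, from 2.86 in DND41 to 5.11 in Nalm6. In REH (1.59 and 1.63), 697 (1.9 and 1.98) and CEM (1.6 and 1.52) the groups overlapped. No test of the ratio was run within a line. These are transcripts, and protein assembly was not measured.

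**Figure D4:**
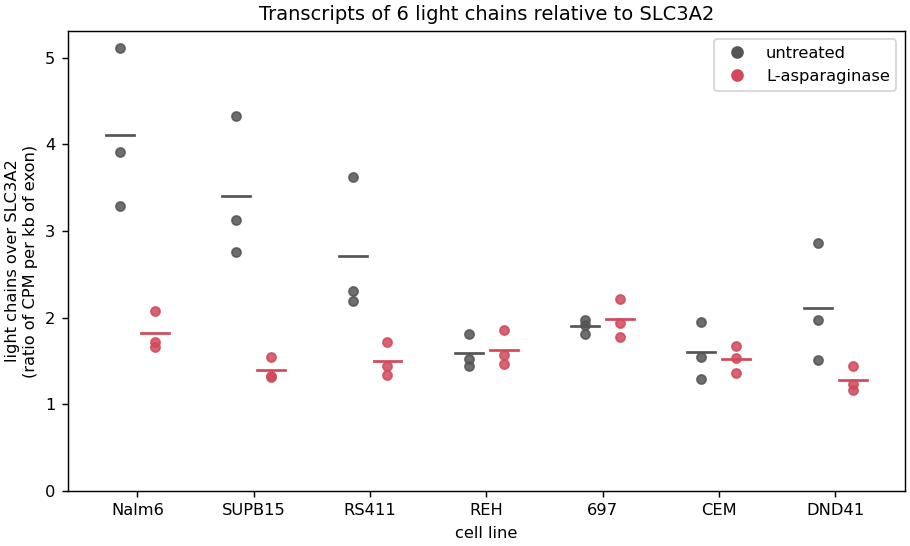
Ratio of the summed light chain transcripts to SLC3A2, both as CPM per kb of exon, in each untreated (grey) and treated (red) library, with a bar for the mean of 3. Red lies wholly below grey in Nalm6, SUPB15, RS411 and DND41, and the treated libraries of all lines fall between 1.16 and 2.22 while untreated ones reach 5.11.

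SLC7A5 made up most of that light chain sum. Its share was 92.6% in untreated and 81.6% in treated SUPB15, 84% and 77.5% in CEM, 81.8% and 76.9% in RS411, and 79.8% and 66.3% in DND41, with no overlap between groups in any of the 4. In Nalm6 (92.5% and 90.2%), REH (79.2% and 81.1%) and 697 (84.1% and 87.3%) the groups overlapped. SLC7A11 itself rose in all 7 lines, as in CEM from 21.6 ± 6.62 to 268 ± 50 CPM (log2 3.64 ± 0.21, adjusted p = 7.1e-07).

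SLC1A4 (ASCT1), an exchanger of alanine, serine and cysteine, was called in 6 lines, with a mean response of 0.9 ± 0.06 (adjusted p = 1.6e-14). Its largest rise was in REH, from 46.8, 50.5 and 32 CPM to 93.5, 123 and 110 CPM (1.38 ± 0.17, adjusted p = 0.00035). In DND41, the line with the highest untreated level, the libraries overlapped at 286, 255 and 240 CPM untreated and 284, 352 and 297 CPM treated (0.28 ± 0.14, adjusted p = 0.16). That response was 0.75 ± 0.17 smaller than the mean of the other lines (adjusted p = 0.0047), and the lines differed in the joint test (interaction adjusted p = 0.0059). Without untreated A the rise in DND41 passed (0.38, adjusted p = 0.045). The calls in 697 and RS411 ended without single libraries (adjusted p from 0.051 to 0.23).

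SLC1A5 rose in 5 lines, most in CEM, from 103, 107 and 89.7 CPM to 297, 334 and 326 CPM (1.68 ± 0.095, adjusted p = 6.6e-07). The mean response was 0.87 ± 0.13 (adjusted p = 6.3e-07), and a difference between lines was not detectable (interaction adjusted p = 0.22). Nalm6 overlapped at 178, 251 and 232 CPM untreated and 261, 239 and 261 CPM treated (0.24 ± 0.13, adjusted p = 0.23). In 697 the change of 1.29 ± 0.62 did not pass until library 1, at 25.1 CPM against 204 and 155 in the others, was left out (0.8, adjusted p = 0.0017). In SUPB15 the call ended without treated C (0.9, adjusted p = 0.054), A or B, in RS411 without any of 5 libraries and in DND41 without any of 3. A stretch of 23.4% of its exon length overlaps an antisense gene.

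SLC38A2, known for induction when amino acids are scarce, rose in 6 lines with a mean response of 0.7 ± 0.059 (adjusted p = 6.3e-12). SUPB15 moved most, from 297, 331 and 427 CPM to 794, 834 and 822 CPM (1.2 ± 0.15, adjusted p = 0.0014), which was 0.61 ± 0.17 above the mean of the other lines (adjusted p = 0.038). DND41 overlapped at 391, 452 and 523 CPM untreated and 390, 577 and 520 CPM treated (0.15 ± 0.17, adjusted p = 0.55), 0.67 ± 0.17 below the others (adjusted p = 0.012). Leaving out single libraries ended the call in Nalm6 (treated A, adjusted p = 0.06), RS411 (from 0.086 to 0.13) and 697 (from 0.11 to 0.28). SLC38A1 went the other way between these lines. DND41, where it was lowest, had 38.9, 20.6 and 18.2 CPM untreated and 35.9, 54.5 and 49.9 CPM treated, which overlap (0.87 ± 0.28, adjusted p = 0.048), and this was 0.67 ± 0.19 above the others (adjusted p = 0.032). The call ended with another scaling (0.85, adjusted p = 0.051) and without any of 4 libraries. SLC38A1 also rose in REH and CEM, by 0.71 ± 0.16 and 0.43 ± 0.099, and in 697 without untreated library 1 (0.6, adjusted p = 0.01), and its values in Nalm6 (-0.21), SUPB15 (-0.03) and RS411 (-0.26) did not pass.

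SLC38A5 (SNAT5), a carrier of glutamine, serine and glycine, fell in the mean response by a small amount (-0.19 ± 0.069, adjusted p = 0.024). In RS411 it went from 46.7, 61.6 and 55 CPM to 33, 38 and 36.4 CPM (-0.59 ± 0.12, adjusted p = 0.017), with no overlap. CEM was the other line called lower (-0.55 ± 0.098, adjusted p = 0.001). In 697 the value was 0.36 ± 0.28, which did not pass, and the response of 697 was 0.64 ± 0.2 above the other lines (adjusted p = 0.035). Without the 3 treated libraries that held unshared transcripts, the mean lost its call (-0.18, adjusted p = 0.054). The call in RS411 ended without each of 5 single libraries, all but untreated A (-0.51 to -0.64, adjusted p from 0.055 to 0.1).

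SLC38A10, a member of the same family found inside cells, fell in REH from 56.5, 55.8 and 52.9 CPM to 41.6, 36.9 and 36.6 CPM (-0.48 ± 0.11, adjusted p = 0.007), with no overlap. Its mean response of -0.22 ± 0.077 passed (adjusted p = 0.022), but not with the replicate as a block (-0.2, adjusted p = 0.066) or without the 3 treated libraries (-0.21, adjusted p = 0.05). The first untreated library was the lowest of its group in Nalm6 (43.4 CPM against 59.1 and 62.3), SUPB15 (32.2 against 53.6 and 49) and 697 (15.9 against 44.2 and 38.4). Without it the fall passed in these 3 lines, by -0.41, -0.64 and -0.42. SLC38A6, an orphan of the family at 1.31 to 6 CPM in untreated means, was called in no line, although in DND41 it passed with the block (0.48, adjusted p = 0.049).

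Among carriers of cationic amino acids, SLC7A1 rose in 4 lines with a mean response of 0.78 ± 0.075 (adjusted p = 1.3e-10). SUPB15 moved most, from 128, 123 and 111 CPM to 332, 275 and 237 CPM (1.2 ± 0.15, adjusted p = 0.0013). Treated libraries lay above untreated ones in every line but Nalm6. Leaving out single libraries ended the call in RS411 (adjusted p from 0.054 to 0.098) and in REH without treated B (0.051). In DND41 the rise passed with the block (0.63, adjusted p = 0.021) or without untreated A (0.87, adjusted p = 0.0056), and in 697 without untreated library 1 (0.82, adjusted p = 0.0035). SLC7A3 rose in 2 of the 4 lines that express it, from 36.6, 40.6 and 27.8 CPM to 49.8, 74.8 and 63.2 CPM in REH (0.88 ± 0.17, adjusted p = 0.0032) and by 0.67 ± 0.1 in CEM (adjusted p = 0.00039). In RS411, where the pairing of libraries is uncertain, it passed with the block (0.48, adjusted p = 0.032).

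In 697, the treated libraries of both line-restricted cationic carriers lay above the untreated ones. SLC7A3 had 5.56, 16.4 and 15.3 CPM untreated and 44.8, 41.4 and 46.2 CPM treated (1.83 ± 0.37, adjusted p = 0.056), and SLC7A2 had 103, 137 and 157 CPM untreated and 194, 193 and 227 CPM treated (0.62 ± 0.19, adjusted p = 0.14). Neither passed with all 6 libraries, and both did without untreated library 1 (1.49 and 0.49, adjusted p = 6.1e-06 and 0.016).

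The taurine carrier SLC6A6 was the member that fell most. In SUPB15 it went from 19.7, 19.4 and 17.2 CPM to 9.16, 7.45 and 7.56 CPM (-1.24 ± 0.15, adjusted p = 0.0012). Treated libraries lay below untreated ones in 6 lines and overlapped in 697, which had 24.1, 28.8 and 32.4 CPM untreated and 22.6, 18.6 and 28.8 CPM treated. The fall was called in 5 lines, the largest after SUPB15 being CEM (-1.2 ± 0.091), DND41 (-1.07 ± 0.17) and Nalm6 (-0.99 ± 0.14), and the mean was -0.84 ± 0.058 (adjusted p = 5e-14). The lines differed (interaction adjusted p = 0.0012), with 697 0.64 ± 0.16 above the others (adjusted p = 0.0095). SLC6A6 thus moved against SLC6A9 of the same family in each line where both were called.

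**Figure D5:**
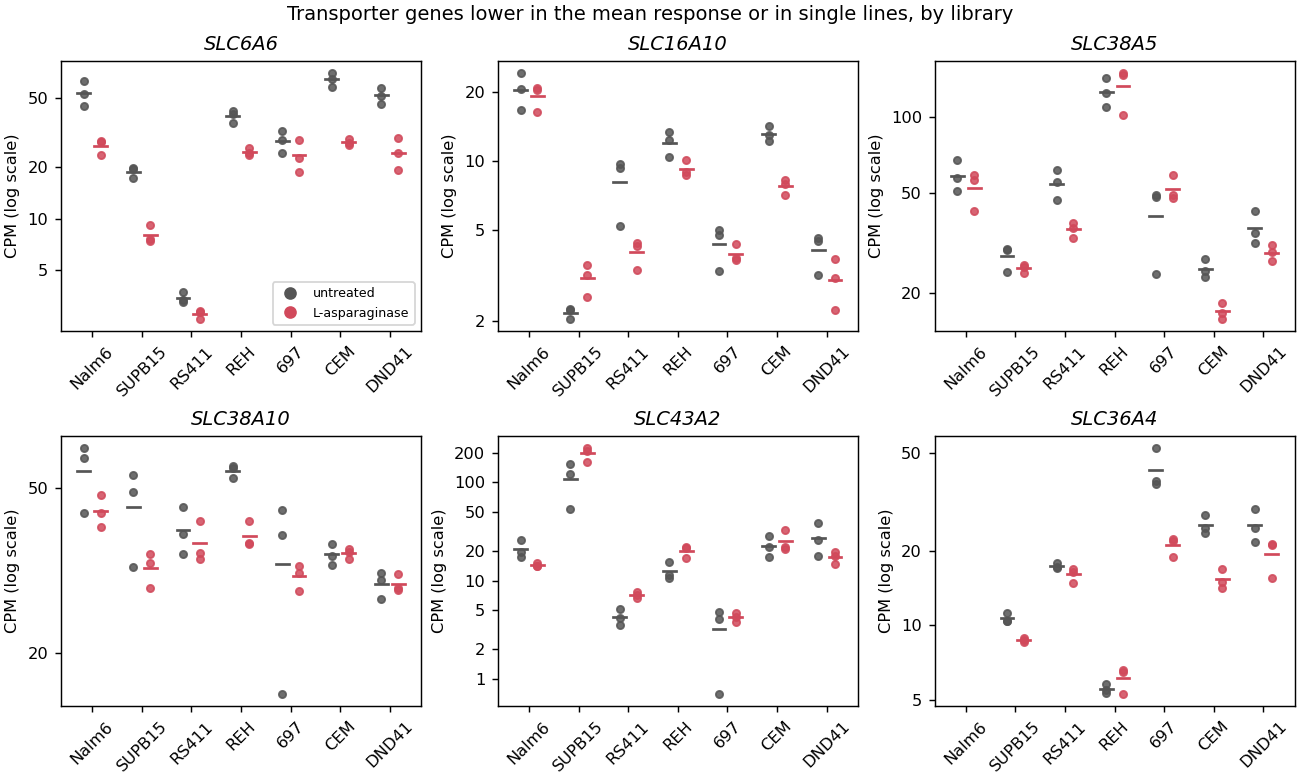
CPM of 6 members in each library on log axes, untreated (grey) and treated (red), with a bar for the mean of 3 libraries, by line. Red lies below grey for SLC6A6 in all lines but 697, while SLC43A2 is above grey in SUPB15, RS411 and REH and below it in Nalm6, and SLC36A4 has no points in Nalm6 because its counts there were 0.

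SLC43A1 (LAT3), a facilitator of leucine and other branched-chain amino acids, rose in 6 lines (mean 0.83 ± 0.083, adjusted p = 3.1e-10). In 697 it went from 9.26, 23.8 and 26.9 CPM to 87.3, 93.9 and 97.7 CPM (2.21 ± 0.37, adjusted p = 0.033). The groups did not overlap in any of the 7 lines. The response of 697 was 1.61 ± 0.24 above the mean of the others (adjusted p = 2.5e-05), and the lines differed (interaction adjusted p = 0.00024). That call in 697 did not hold within the line without any 1 of 5 libraries (2.18 to 2.47, adjusted p from 0.07 to 0.19), while without untreated library 1 it stayed. Elsewhere the rise was 1.11 ± 0.11 in CEM and between 0.42 in Nalm6, which did not pass, and 0.7 in RS411. Leaving out single libraries ended the call in SUPB15, RS411, REH and DND41 (adjusted p from 0.055 to 0.15).

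SLC43A2 was the single member called higher in some lines and lower in another. In RS411 it went from 3.58, 5.19 and 4.15 CPM to 6.6, 7.11 and 7.62 CPM (0.73 ± 0.18, adjusted p = 0.034), and in REH from 15.5, 10.7 and 11.4 to 21.6, 16.9 and 22.2 CPM (0.73 ± 0.18, adjusted p = 0.013). In Nalm6 it went from 17.3, 25.7 and 19.4 to 14.2, 15.1 and 14 CPM (-0.49 ± 0.15, adjusted p = 0.042). None of the 3 pairs of groups overlapped. The test of the difference between lines did not pass (interaction adjusted p = 0.06). Leaving out single libraries ended the call in each of the 3 lines, as in Nalm6 without untreated B (-0.32, adjusted p = 0.15). With the block, the mean response (0.29, adjusted p = 0.039), the rise in SUPB15 (0.94, adjusted p = 0.022) and the fall in DND41 (-0.57, adjusted p = 0.041) passed, which they did not without it (0.23, 0.83 and -0.62). Without untreated A, SUPB15 (0.55, adjusted p = 0.013) and DND41 (-0.83, adjusted p = 0.0079) passed as well. SLC43A3, a family member known as a purine base carrier, was called in DND41 only (0.42 ± 0.13, adjusted p = 0.043), a call that ended with another scaling (adjusted p = 0.051) and without any of 4 libraries.

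SLC16A10 (TAT1), a facilitator of aromatic amino acids, fell in the mean response (-0.33 ± 0.078, adjusted p = 0.0007). In RS411 it went from 5.2, 9.29 and 9.65 CPM to 3.34, 4.24 and 4.37 CPM (-1.0 ± 0.25, adjusted p = 0.033), with no overlap. The call there ended without any library but untreated A (-0.85 to -1.06, adjusted p from 0.099 to 0.12). CEM fell by 0.74 (SE 0.11, adjusted p = 0.0004), and REH passed with the block (-0.34, adjusted p = 0.029). In SUPB15 the libraries held 2.04, 2.25 and 2.23 CPM untreated and 2.55, 3.17 and 3.52 CPM treated (0.49 ± 0.21, adjusted p = 0.12), which do not overlap, and the response was 0.98 ± 0.23 above the mean of the others (adjusted p = 0.012). The lines differed in the joint test (interaction adjusted p = 0.005).

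At the lysosome, SLC38A9, the arginine sensor, rose in RS411 (0.68 ± 0.11, adjusted p = 0.008), CEM (0.69 ± 0.1, adjusted p = 0.0003) and DND41 (0.65 ± 0.12, adjusted p = 0.0049), with a mean of 0.47 ± 0.047 (adjusted p = 2.8e-10). In CEM the libraries went from 23.6, 27.5 and 29.9 CPM to 39.6, 43.1 and 47 CPM. Nalm6 overlapped at 34.3, 39 and 37.1 CPM untreated and 32.8, 34.8 and 36 CPM treated, and its response was 0.66 ± 0.13 below the mean of the others (adjusted p = 0.0035). In REH the rise passed with the block (0.38, adjusted p = 0.003) and without treated A (0.47, adjusted p = 0.035). It also passed without the first untreated library in SUPB15 (0.35, adjusted p = 0.025) and in 697 (0.63, adjusted p = 0.0068). In RS411 it ended without treated B or C (0.69 and 0.67, adjusted p = 0.055 and 0.063).

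SLC36A1 (PAT1), a proton-coupled exporter of small amino acids, was called in no line in the models of single lines, with values from 0.18 to 0.58 in the 6 lines tested. Its mean rise in the joint model passed (0.59 ± 0.13, adjusted p = 0.00044) but lies above all of these. REH, too low to be tested alone at 0.136, 0.0553 and 0.0426 CPM untreated and 0.726, 0.305 and 0.0802 CPM treated, entered that mean with 2.03 ± 0.59. The 0.726 CPM is from treated A, which held unshared transcripts and had the lowest depth of all libraries (15.07 M). In CEM SLC36A1 passed with the block (0.49, adjusted p = 0.029), with no filter (0.5, adjusted p = 0.045) and without untreated A (0.65, adjusted p = 0.019). SLC38A7, a lysosomal exporter of glutamine and asparagine, had a mean rise of 0.36 ± 0.089 (adjusted p = 0.0013) and was called in CEM (0.52 ± 0.17, adjusted p = 0.033), a call that ended without any of 5 libraries. SLC36A4 fell in CEM, from 24.8, 23.8 and 28 CPM to 15, 16.9 and 14.2 CPM (-0.72 ± 0.1, adjusted p = 0.00023). In 697 it had 52.3, 38.5 and 37.4 CPM untreated and 22.4, 22.1 and 19 CPM treated, which did not pass with all libraries (-1.03 ± 0.21, adjusted p = 0.057) and did without library 1 (-0.83, adjusted p = 0.00055). In DND41 it passed with the block (-0.37, adjusted p = 0.038).

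The glutamate carriers SLC1A2 and SLC1A3 passed in no line. With no filter on low counts SLC1A3 passed in Nalm6 (0.63, adjusted p = 0.027), and without untreated library 1 it passed in 697 (0.86, adjusted p = 0.025). SLC1A3 in REH had 0.478, 0.47 and 0.511 CPM untreated and 0.528, 1.1 and 1.02 CPM treated (0.95 ± 0.35, adjusted p = 0.071). It passed there with the block (0.94, adjusted p = 0.032) and without treated A (1.14, adjusted p = 0.034). SLC1A2 changed by -0.21 ± 0.24 in Nalm6 (adjusted p = 0.57). In REH, SLC38A3 went from 0.614, 0.609 and 0.745 CPM to 0.528, 0.126 and 0.214 CPM (-1.42 ± 0.5, adjusted p = 0.057) and passed with the block (-1.45, adjusted p = 0.02) and without treated A (-1.96, adjusted p = 0.014).

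In the test of all 6 differences between the lines' responses, 12 of 28 members passed, against 19.4% of all genes. These were SLC1A2, SLC1A4, SLC6A6, SLC6A9, SLC7A5, SLC16A10, SLC36A4, SLC38A1, SLC38A2, SLC38A5, SLC38A9 and SLC43A1. For SLC1A2 the test rests in part on SUPB15, where it held at most 0.0232 CPM untreated and 0.235, 0.167 and 0.809 CPM treated. The last value is from library C, which held unshared transcripts. Nalm6 had no SLC36A4 to compare. Against the mean of the other lines, 697 stood above in SLC43A1, SLC7A5, SLC6A6 and SLC38A5, and Nalm6 below in SLC6A9 and SLC38A9. DND41 stood below in SLC1A4 and SLC38A2 and above in SLC38A1 and SLC7A6, the latter by 0.56 ± 0.17 (adjusted p = 0.048). SUPB15 stood below in SLC7A5 and above in SLC38A2 and SLC16A10, and CEM above in SLC6A9. The share of all genes that stood apart in this way is not given here, so these names are descriptions.

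Beside the members, 24 further carriers of the plasma or lysosomal membrane were examined, of which 12 could be tested together. In the mean response 3 rose and 2 fell, against 17.8% and 19.6% of all genes, and their median log2 fold change was 0.09. For SLC1A7, SLC6A5, SLC6A15, SLC6A19, SLC6A20 and SLC15A3 the mean had no usable error. They could not be called and their values enter that median, so neither number can be set against the background. Of the carriers with a usable error, only SLC29A3 did not pass (0.08 ± 0.071, adjusted p = 0.48). SLC7A11, the cystine and glutamate exchanger, rose by 2.14 ± 0.13, the histidine and peptide carrier SLC15A4 by 0.29 ± 0.078 and the lysosomal cystine exporter CTNS by 0.2 ± 0.06. The sialic acid and acidic amino acid exporter SLC17A5 (-0.32 ± 0.075) and the lysosomal cationic carrier PQLC2 (-0.38 ± 0.1) fell. The neutral amino acid carrier SLC6A19 was present in SUPB15, where it went from 24.4 ± 5.88 to 13.1 ± 2.22 CPM (-0.92 ± 0.21, adjusted p = 0.013), and in no other line did its mean exceed 0.488 CPM. SLC6A20, a proline carrier, rose in CEM and DND41, the T lines, from 1.74 ± 0.67 to 4.04 ± 1.03 CPM and from 8.46 ± 0.984 to 19.9 ± 7.71 CPM, and lay at or below 0.231 CPM in the mean elsewhere.

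Of 12 regulators and known targets of the amino acid response, 11 rose and 1, the kinase gene EIF2AK4 (GCN2), fell in the mean response (-0.5 ± 0.045), with a median of 1.34, against 17.8% higher and 19.6% lower among all genes. The stress factor DDIT3 rose by 2.28 ± 0.078, SESN2, a leucine sensor, by 2.59 ± 0.17, and the asparagine synthetase ASNS by 1.07 ± 0.099. In the T line CEM 10 rose and 1 fell of 11 tested (19% and 17.7% of all genes), in Nalm6 7 rose and 1 fell of 12 (8.96% and 11.8%), and in 697 5 rose and 0 fell of 12 (1.55% and 0.849%). These lists were drawn up with earlier results of these data known, and their counts are descriptions.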

How the data were processed

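RNA sequencing was available for 42 libraries of 7 ALL cell lines. The authors deposited 1 table of whole-number read counts per gene symbol for each line, not normalized. The build is hg19 per the submitters' processing notes, while the aligner, the counter, the annotation and the use of strand are not stated in any source used here. Columns were matched to groups by line and treatment. Only those of 697 carry the labels' replicate numbers, and the letters A, B and C of the other lines appear in no label. The tables were joined to 50648 genes, leaving out 2 repeated symbols.

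Counts were tested with edgeR 4.0.16 in R 4.3.3 (TMM scaling, filterByExpr with a minimum count of 10, glmQLFit and glmQLFTest, Benjamini-Hochberg over all genes tested, called at an adjusted p under 0.05). Each line was fitted on its 6 libraries. The joint model of all 42 libraries, fitted per group, supplied the mean over lines, the interaction and each line against the others. CPM values use the TMM factors of the joint model. The scripts were tested on simulated data.

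Alternatives were RLE scaling, DESeq2 1.42.0, no filter, the replicate as a block, a 1.5-fold minimum and leaving out libraries. Letters or numbers were taken to pair libraries where every pair of deviations from the group means correlated above 0.1. This held in REH (lowest correlation 0.331), DND41 (0.35), CEM (0.168), SUPB15 (0.153) and RS411 (0.101) and not in Nalm6 (0.053) or 697 (-0.075). Between unlike letters the highest correlation was -0.01 in REH and CEM, 0.11 in SUPB15, 0.28 in DND41 and 0.24 in RS411. In RS411 that lies above the lowest matched pair, so the pairing there is uncertain.

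Members shown library by library were those changed at least 2-fold or called lower in the mean response, called in both directions, or among the 4 with the widest range between lines, each in the line of its largest called change. Further libraries are shown where a call depended on them. The members, lists and motif were chosen with earlier results of these data known. Lists of B-lineage, T-lineage, myeloid, stromal and erythroid markers were summed per library.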

Additional observations from a re-analysis of the deposited data

Results flagged for a closer look

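For 11 members the response differed between lines by the interaction test of the joint model (edgeR quasi-likelihood F test, adjusted p under 0.05), beside SLC1A2, which had a tested response in 1 line only. The spread of their log2 fold changes over the lines tested, highest minus lowest, was 3.17 for SLC6A9, 1.94 for SLC7A5, 1.79 for SLC43A1, 1.49 for SLC16A10 and 1.21 for SLC36A4. It was 1.13 for SLC38A1, 1.1 for SLC1A4, 1.05 for SLC38A2, 0.95 for SLC6A6, 0.95 for SLC38A5 and 0.75 for SLC38A9. The lines at the ends were CEM and Nalm6 for SLC6A9, 697 and SUPB15 for SLC7A5, and SUPB15 and RS411 for SLC16A10. Among all genes tested 19.4% passed the same test.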

How the results depend on the processing

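Of 90 member responses called in a line or in the mean 55 kept their call under every alternative run, and none changed sign. Of 101 responses not called, 34 were called under at least 1 alternative. The number of members called changed by more than 1.5 times in 4 lines. The share of all genes called under each alternative is not given, so these counts do not single out the carriers. Without the 5 untreated libraries that stood apart it was 14 in SUPB15 (9 with all libraries) and 17 in 697 (4 with all libraries). Without the 3 treated libraries with unshared transcripts it was 3 in RS411 (13 with all libraries). In 697 DESeq2 called 11 members and the replicate block 0, where the numbers did not pair the libraries. Leaving out 1 library at a time gave between 5 and 14 members in SUPB15, 3 and 13 in RS411, 0 and 17 in 697 and 3 and 12 in DND41. The mean response had 11 members at 1.5-fold or more against 18 at any size. With the replicate block 10 members were called in SUPB15, 14 in RS411, 19 in REH, 19 in CEM, 13 in DND41 and 6 in Nalm6. Beside the values given with the results, the block changed no call in the lines taken as paired. Median levels rest on about 40.28 counts per CPM, so members below 1 CPM carry large counting error.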

Other observations

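Of 10 tested members of a list of mitochondrial amino acid carriers, 2 rose and 3 fell in the mean response (edgeR, adjusted p under 0.05), against 17.8% and 19.6% of all genes, with a median log2 fold change of -0.01. SLC25A29, a carrier of arginine and lysine, fell by 1.38 (SE 0.13) in the mean and was called lower in 6 of 7 lines, most in DND41 (-2.13 ± 0.25, adjusted p = 0.00079). The serine carrier SFXN1 fell by 0.66 (SE 0.044) and was called lower in 5 lines, and its relative SFXN3 fell by 0.34 (SE 0.1). SLC25A38, the glycine carrier of haem synthesis, rose by 0.34 ± 0.052 and the aspartate and glutamate carrier SLC25A12 by 0.19 ± 0.049.

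Of 24 genes of lysosomal amino acid sensing around SLC38A9, 6 rose and 3 fell in the mean response, against 17.8% and 19.6% of all genes, with a median of 0.02. RRAGD, a Rag GTPase, fell by 0.67 (SE 0.07) and was called lower in 5 lines, and WDR59, of the GATOR2 complex, fell by 0.31 (SE 0.05), while the GATOR1 genes DEPDC5 and NPRL3 rose by 0.25 ± 0.053 and 0.27 ± 0.071. Members of both lists were chosen with earlier results known, and these values describe these libraries.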
